A study of Mus musculus with 8 samples.

Results

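The 4 arrays titled replicate 2 were set against the 4 arrays titled replicate 1, out of 8 Illumina bead arrays in all. Each of 4 groups held 1 array of each number, so replicate 2 was compared with replicate 1 within a group in 4 pairs. The groups were total cytoplasmic RNA and heavy polysomal RNA (mRNAs carrying more than 3 ribosomes, pooled) from fibroblasts of mice whose eIF4E gene carries a knock-in that blocks phosphorylation of the protein (KI), and the same RNA types from wild-type fibroblasts (WT). Both lines came from embryos at day 14.5, had become immortal through passage, and grew in DMEM with 10% serum. There was 1 line of each genotype. Per the labels, RNA was isolated in 2 experiments on this pair of lines, and total and polysomal RNA of a line and number share a source name, which gives 4 cultures. That replicate 2 of KI and replicate 2 of WT belong to the same experiment is an inference from the shared number. The culture, the RNA isolation and the labelling of an experiment cannot be told apart.

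The comparison asks which genes differed between experiments whatever the genotype, as a background for the comparison of KI with WT. eIF4E holds the 5′ cap of an mRNA as translation starts, and it is phosphorylated by the MNK kinases downstream of ERK and p38. Fibroblasts answer fresh serum, growth factors or handling with a wave of immediate early genes, transcribed within minutes through the serum response factor and switched off again soon after. The state of growth of a culture also sets its share of cells in S phase and mitosis, its making of ribosomes, and its output of matrix. Nutrient or oxidative stress acts through the factors ATF4 and NRF2. Each of these programmes can differ between dishes of one line.

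Values are the deposited signal, taken as log2 although the log base is not given in the sources used here, and differences are replicate 2 minus replicate 1. Of 25697 probes on each array, 12848 had a mean above the median of the probe means, 7.73, and the brightest of these for each gene gave 8832 tested genes. Array medians were 7.69 to 7.73, so a signal near 7.7 lies in the dim lower portion of the range. Fibroblast markers were present, with 11 of 14 over 9 on some array. Of the markers of other cell types, those over 9 on any array were Cd14 among 14 macrophage genes, Flt1 among 10 endothelial genes, Krt14 and Krt19 among 11 epithelial genes, Acta1 among 14 muscle genes, Col2a1 among 10 genes of fat, cartilage and bone, and Nes among 11 neural genes. Eif4e itself differed little between experiments, with a mean difference of -0.05 ± 0.07 (SE, n = 4 pairs; limma adjusted p = 0.81).

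One array, labelled WT total replicate 2, differed widely from its partner. In total RNA the WT arrays were over 2 apart for 38 genes, of which replicate 2 was higher for 16 and lower for 22. Of these 38, 2 were over 1 apart in the same direction between the WT polysomal arrays, and for 5 the KI total arrays were. Crip2, which encodes a LIM domain protein, read 12.14 on WT total replicate 2 and 7.93 on WT total replicate 1, against 12.91 and 12.35 on the KI total arrays and 7.72 and 7.78 on the WT polysomal arrays. The chemokine gene Ccl7 read 8.47 on WT total replicate 2 and 12.45 on WT total replicate 1, while the WT polysomal arrays read 12.98 and 12.53 and the KI total arrays 8.60 and 8.76. Dcn, the matrix proteoglycan decorin, read 8.09 and 11.91 on the same WT total arrays, and 14.05 and 13.89 on the WT polysomal ones. For these genes WT total replicate 2 lay nearer the KI total arrays than WT total replicate 1 did.

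Other genes went a different way. The cartilage collagen gene Col2a1 read 10.42 on WT total replicate 2 and at most 7.99 on the other 7 arrays. The fetal growth factor gene Igf2, chosen after its values were seen, read 10.07 there and 7.66 to 7.77 elsewhere. Cxcl1, a neutrophil chemokine gene chosen in the same way, read 10.25 on WT total replicate 2 and 7.70 on WT total replicate 1, and 9.98 and 9.45 on the KI total arrays. Hoxb7, a homeobox gene that separated the lines, read 9.65 on WT total replicate 2, near the 10.03 of WT total replicate 1 and far from the 7.65 and 7.64 of the KI total arrays. Of 33 genes whose polysomal signal differed by over 2 between the lines, WT total replicate 2 was nearer to the KI total mean than to WT total replicate 1 in 17, and WT total replicate 1 was nearer to that mean than to WT total replicate 2 in 11. The array is called by its label throughout, and counts of genes with 1 sign in all 4 pairs are set beside those in the 3 pairs without WT total.

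**Figure D1:**
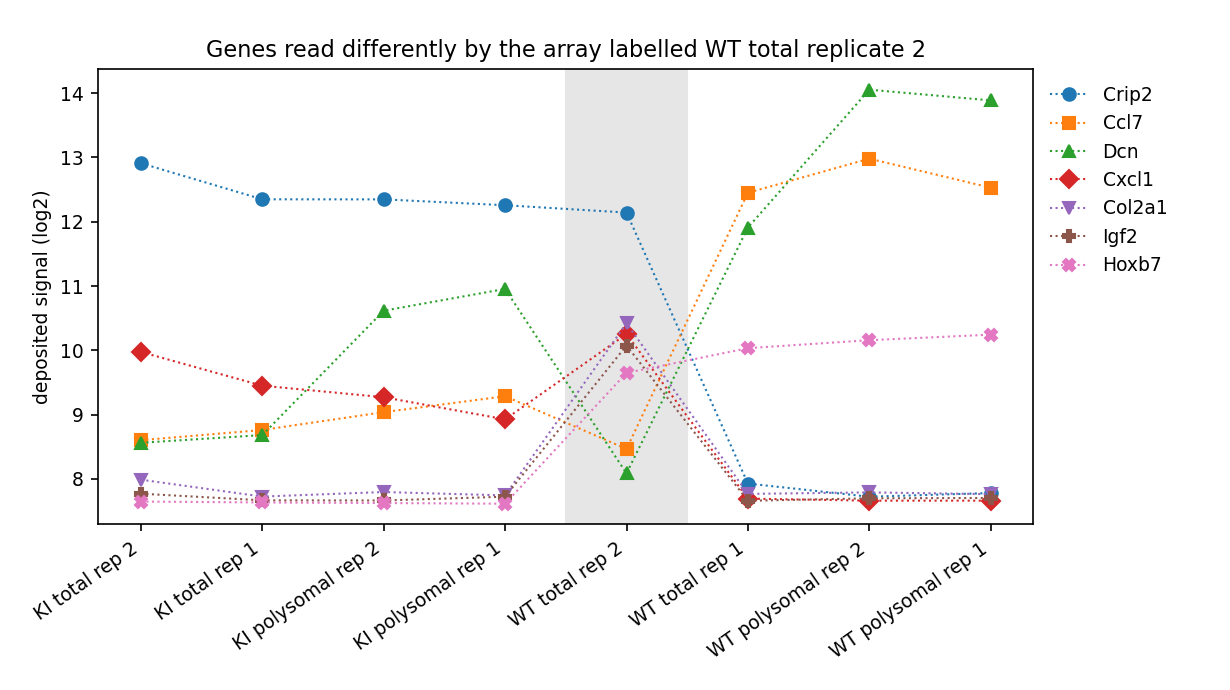
Deposited signal (log2, vertical axis) of 7 genes on each of the 8 arrays (horizontal axis), with replicate 2 left of replicate 1 and WT total replicate 2 on a grey band. Crip2, Ccl7 and Dcn read on the banded array near the KI total arrays, Hoxb7 near the other WT arrays, and Col2a1 and Igf2 above all other arrays.

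Over the tested genes, RNA type took 71.7% of the variance between arrays, the line 11.7% and the replicate number 6.31%. The replicate difference that ran opposite ways in the RNA types took a further 3.42%, the one that ran opposite ways in the lines 3.05%, and the one that depended on both 1.77%. The line difference that depended on RNA type took 1.98%. The replicate pairs differed most in total RNA, where the SD of the difference over genes was 0.40 in KI and 0.45 in WT, and less in polysomal RNA, at 0.30 in KI and 0.25 in WT.

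No gene passed limma's test of replicate 2 against replicate 1 blocked by group, with 0 of 8832 at an adjusted p under 0.05. At an unadjusted p under 0.05 there were 1297, which is 14.7% of the genes. Of these, 664 (7.52%) read higher and 633 (7.17%) lower in replicate 2. By sign alone, 1089 genes (12.3%) read higher in all 4 pairs and 953 (10.8%) lower. In the 3 pairs without WT total, 1832 (20.7%) were higher and 1542 (17.5%) lower. By contrast 2991 (33.9%) had the same sign of KI minus WT on all 4 array pairs, and 82 (0.928%) passed limma's test of that contrast, beside 1817 at an unadjusted p under 0.05. That count of 82 was 464 without WT total replicate 2, 0 without either KI total array, 43 without WT total replicate 1, and 5 to 11 with 1 of the 4 polysomal arrays left out. The replicate difference was the larger of the 2 in size for 3902 genes (44.2%). The median absolute difference was 0.11 for replicate and 0.12 for genotype, and 29 genes exceeded 1 for replicate against 135 for genotype. The p-values treat total and polysomal RNA of a culture as separate arrays, and measure only the spread between these arrays of 1 line per genotype. A test of whether one difference exceeded the other found 0 genes at an adjusted p under 0.05, with an unadjusted p under 0.05 for 140 where replicate was the larger and for 375 where genotype was.

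The genes that differed most evenly between experiments were of mixed kinds, and none passed the test. Gjb2, which encodes the gap junction protein connexin 26, read 7.94 and 8.0 in KI total and polysomal RNA and 8.18 and 8.13 in WT total and polysomal RNA of replicate 2. In replicate 1 it read 9.02, 9.25, 9.34 and 9.15 in the same order. All 4 arrays of replicate 2 lay below all 4 of replicate 1, with a difference of -1.13 ± 0.07 (SE, n = 4 pairs; limma adjusted p = 0.105, the smallest of this contrast). KI minus WT for Gjb2 was -0.15 ± 0.07. A second, dimmer probe for Gjb2 gave -0.34.

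Col6a1, a chain of the microfibril collagen VI, read 12.32, 12.55, 11.85 and 11.36 in replicate 2 (KI total, KI polysomal, WT total and WT polysomal, an order kept below), against 11.19, 11.22, 10.90 and 10.55 in replicate 1. Pcolce, the enhancer of procollagen C-terminal processing, read 12.76, 12.54, 12.11 and 11.80 in replicate 2, against 11.94, 11.65, 11.15 and 11.08 in replicate 1. Every pair was higher in replicate 2 for both genes, by 1.05 ± 0.10 for Col6a1 and 0.85 ± 0.07 for Pcolce (adjusted p = 0.114 for each), with no overlap of the experiments for Col6a1 and overlap only between WT replicate 2 and KI replicate 1 for Pcolce. Another probe for Col6a1 gave 0.68. Plpp3, a phosphatase that breaks down lysophosphatidic acid, read 11.41, 12.91, 11.17 and 12.97 in replicate 2, against 10.59, 12.11, 10.37 and 11.83 in replicate 1. Its difference was 0.89 ± 0.08 (adjusted p = 0.114), close in 3 pairs and larger in WT polysomal RNA, while a dimmer probe gave 0.29. Cyp1b1, a cytochrome P450 of steroid and hydrocarbon metabolism, read 8.54, 9.35, 9.91 and 11.27, against 7.79, 8.33, 9.06 and 10.47. It too was higher in each pair, by 0.85 ± 0.07 (adjusted p = 0.114), on top of a WT signal above that of KI.

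Rnu6, the name of a probe for the U6 RNA of the spliceosome, read 13.57, 11.62, 13.89 and 11.35 in replicate 2, against 12.77, 10.33, 12.88 and 10.22 in replicate 1. The difference was 1.06 ± 0.10 (adjusted p = 0.114), and KI minus WT was -0.01 ± 0.10. Mgp, an inhibitor of matrix calcification, was chosen after its values were seen. It read 13.89, 13.08, 13.91 and 10.79 in replicate 2, against 11.99, 10.59, 11.15 and 9.40 in replicate 1. It was over 1 higher in every pair, the only tested gene so (0.0113%), with a mean of 2.14 ± 0.24 (adjusted p = 0.138).

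On the lower side, Cdkn2b, the p15 inhibitor of the cell-cycle kinases CDK4 and CDK6, read 9.67, 9.92, 10.10 and 10.28 in replicate 2, against 10.55, 10.58, 10.72 and 11.001 in replicate 1. The 2 experiments did not overlap within a line, and the difference was -0.72 ± 0.07 (adjusted p = 0.114). Uap1l1 differed by -0.77 ± 0.06 and Glipr2, a Golgi membrane protein, by -0.66 ± 0.06, each with an adjusted p of 0.114, and their dimmest and brightest pairs differed by almost the same amount. Xbp1, a transcription factor of the unfolded protein response, differed by -0.84 ± 0.09 (adjusted p = 0.114). Lman2l, a cargo receptor of the secretory pathway, differed by -0.59 ± 0.06 and Nipsnap1, a mitochondrial protein, by -0.75 ± 0.08. Tgif1, a repressor of TGF-beta signalling chosen after its values were seen, differed by -1.06 ± 0.11 (adjusted p = 0.114), and its 2 other measured probes ran the same way.

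**Figure D2:**
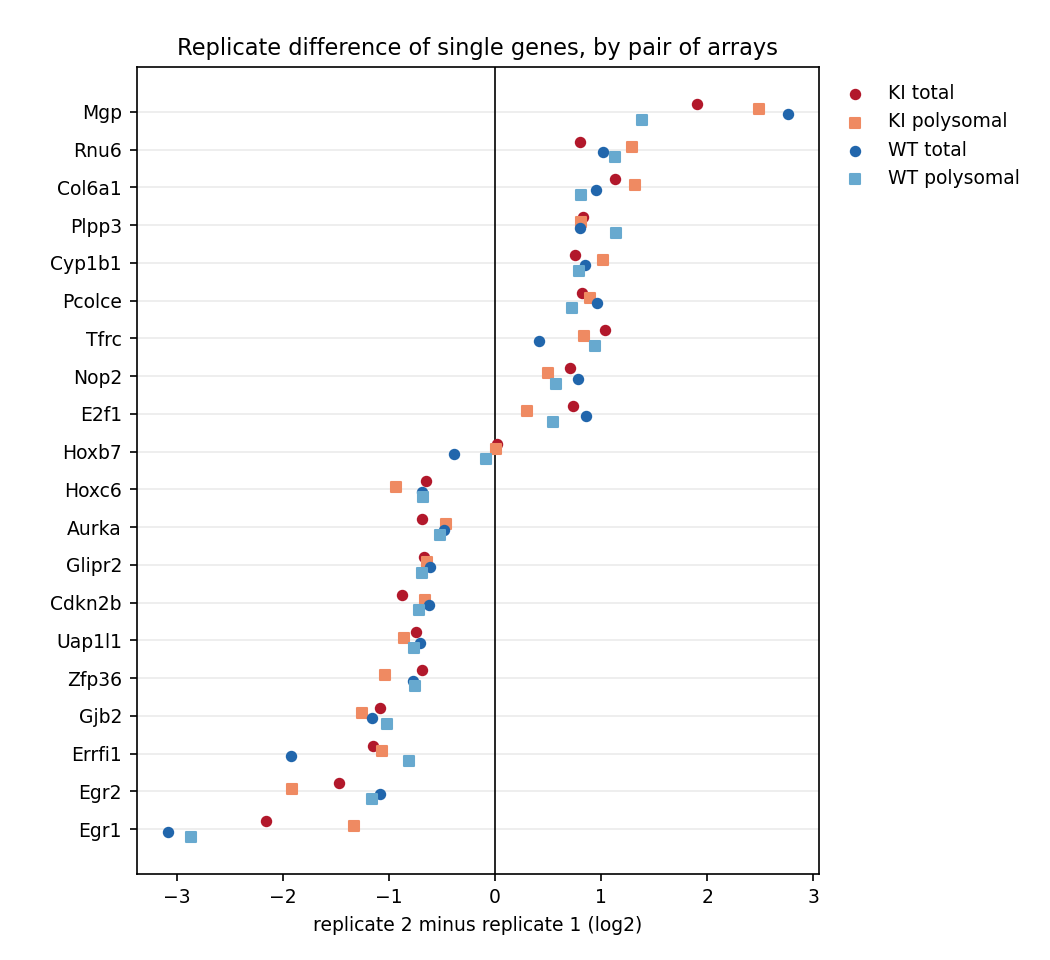
Replicate 2 minus replicate 1 (log2, horizontal axis) of 20 genes (rows), with a point for each of the 4 pairs of arrays and a line at 0. The 4 points of Gjb2, Glipr2, Cdkn2b and Uap1l1 lie close together below 0, those of Pcolce and Cyp1b1 close together above it, and those of Hoxb7 around 0.

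The immediate early genes read lower in replicate 2, most evenly in polysomal RNA. Of 26 tested, 9 were lower and 0 higher at an unadjusted p under 0.05, where the share over all genes was 7.17% lower, and 0 passed after adjustment. In all 4 pairs 8 were lower and 0 higher, and in both polysomal pairs 17 were lower and 0 higher, beside 29.4% of all genes lower in both. In both total pairs 9 were lower and 5 higher, beside 27.4% and 33.1% of all genes. The median difference was -0.24, against 0.01 over all genes. By pair it was -0.27 in KI total, -0.42 in KI polysomal, -0.07 in WT total and -0.32 in WT polysomal RNA. Without the WT total pair the median was -0.40, and 13 were lower in the other 3 pairs, where 17.5% of all genes were.

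Egr1, a zinc finger factor and a classic first responder to serum, had the largest difference among them. It read 11.40, 12.10, 10.26 and 10.86 in replicate 2, against 13.55, 13.44, 13.35 and 13.73 in replicate 1. No array of replicate 2 reached the lowest of replicate 1, and the difference was -2.36 ± 0.31 (adjusted p = 0.163). Its relative Egr2 read 8.03, 8.09, 8.13 and 8.23 in replicate 2, near the dim end, against 9.50, 10.01, 9.21 and 9.40 in replicate 1. The difference was -1.41 ± 0.15 (adjusted p = 0.126), with no overlap.

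Zfp36 encodes tristetraprolin, which brings about the decay of mRNAs with AU-rich elements, among them those of cytokines. It read 9.34, 8.38, 8.70 and 8.10 in replicate 2, against 10.03, 9.42, 9.48 and 8.86 in replicate 1, a difference of -0.82 ± 0.08 (adjusted p = 0.114). Each pair was lower, and the 2 experiments overlapped only across lines and RNA types. The subunits of the factor AP-1 were chosen after their values were seen. Fos read 8.40, 8.54, 8.17 and 7.86 in replicate 2, against 8.90, 9.16, 8.41 and 8.44 in replicate 1 (-0.49 ± 0.09, adjusted p = 0.198). Junb read 10.48, 8.96, 9.39 and 8.54, against 11.40, 10.48, 9.85 and 9.35 (-0.93 ± 0.18, adjusted p = 0.208). Fosl1 differed by -0.65 ± 0.15. Every pair of Fos and of Junb was lower in replicate 2. Their mean differences were smaller than that of Egr1, though in KI polysomal RNA Junb fell by more than Egr1.

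Some genes known to act on the EGF receptor and ERK are given singly, and form no list of their own. Errfi1, an inhibitor of the EGF receptor chosen after its values were seen, read 10.26, 11.61, 9.66 and 11.98 in replicate 2, against 11.40, 12.67, 11.58 and 12.79 in replicate 1 (-1.24 ± 0.19, adjusted p = 0.183). Dusp6, the phosphatase of ERK, also chosen so, differed by -0.60 ± 0.19. Hbegf, a ligand of the EGF receptor, differed by -0.62 ± 0.09, and Phlda1 by -0.62 ± 0.10 (adjusted p = 0.173 and 0.193). None of these passed the test. Phlda1 and Dusp6 are also counted among the immediate early genes.

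Serum response factor binds the CArG box, a run of A and T bases between CC and GG. Among the genes of the list with a promoter in the RefSeq table (build GRCm38.p6), 3 of 18 (16.7%) had a CArG box in the 250 bases before a start, on either strand, against 439 of 27025 genes in all (1.62%). The windows of Egr2 (chr10:67537619-67537868, plus strand) and Zfp36 (chr7:28379229-28379478, minus strand) are shown since both genes were lower in all 4 pairs. The CArG box is in capitals, and its presence is a description of the sequence.

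Egr2: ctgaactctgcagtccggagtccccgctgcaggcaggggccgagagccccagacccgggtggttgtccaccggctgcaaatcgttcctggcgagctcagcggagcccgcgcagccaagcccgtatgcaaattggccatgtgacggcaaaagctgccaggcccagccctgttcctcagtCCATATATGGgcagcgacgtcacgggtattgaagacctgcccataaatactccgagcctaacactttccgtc

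Zfp36: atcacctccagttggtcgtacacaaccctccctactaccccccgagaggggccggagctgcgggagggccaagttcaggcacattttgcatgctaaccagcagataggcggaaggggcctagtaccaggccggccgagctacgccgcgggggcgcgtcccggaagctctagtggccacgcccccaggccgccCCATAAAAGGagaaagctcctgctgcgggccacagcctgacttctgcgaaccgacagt

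The cell-cycle genes split by phase. Of 31 tested DNA replication genes, 6 read higher and 0 lower at an unadjusted p under 0.05 (7.52% of all genes were higher), and 9 were higher in all 4 pairs and 0 lower, beside 12.3% of all genes. The difference was clearest in polysomal RNA, where 22 were higher in both pairs and 2 lower, beside 28% of all genes higher. Medians were 0.32 in KI polysomal and 0.20 in WT polysomal RNA, against 0.05 in KI total and 0.04 in WT total RNA. Of 21 mitosis genes, 0 read higher and 8 lower at an unadjusted p under 0.05, and 7 were lower in all 4 pairs and 1 higher, beside 7.17% and 10.8% of all genes lower. Fewer cells in a phase and less of its mRNA per cell cannot be told apart in bulk RNA. Their medians were -0.08 in KI total, -0.24 in KI polysomal, -0.29 in WT total and -0.14 in WT polysomal RNA. Without the WT total pair, 12 replication genes were higher in the other 3 pairs and 1 lower, and 4 mitosis genes were higher and 11 lower, beside 20.7% of all genes higher and 17.5% lower. In total RNA the replication genes were divided, with 11 higher and 9 lower in both pairs, and 4 higher and 5 lower at an unadjusted p under 0.05.

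E2f1, the factor that turns on S-phase genes, read 12.52, 10.31, 12.56 and 10.24 in replicate 2, against 11.79, 10.00, 11.70 and 9.70 in replicate 1 (0.61 ± 0.11, adjusted p = 0.198). Mcm2, a subunit of the replicative helicase, read 11.57, 11.64, 11.66 and 11.35, against 11.16, 11.33, 10.80 and 10.87 (0.51 ± 0.11, adjusted p = 0.214). Both were higher in each pair, and the Mcm2 arrays of replicate 2 all exceeded those of replicate 1. Ccne1, cyclin E, which carries cells into S phase, differed by 0.49 ± 0.08, and Fen1, the flap nuclease of lagging-strand synthesis, by 0.35 ± 0.06. Mcm7, another helicase subunit, chosen after its values were seen, differed by 0.47 ± 0.13.

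Aurka, the mitotic kinase of the centrosome, read 11.10, 11.71, 11.37 and 11.78 in replicate 2, against 11.79, 12.17, 11.85 and 12.30 in replicate 1 (-0.54 ± 0.07, adjusted p = 0.163). Plk1, which drives entry into and passage through mitosis, read 11.76, 12.14, 11.84 and 11.79, against 12.92, 13.04, 12.20 and 12.64 (-0.82 ± 0.14, adjusted p = 0.194). For both genes every array of replicate 2 lay below every array of replicate 1, narrowly so for Aurka. Cdca8 of the chromosomal passenger complex differed by -0.49 ± 0.10, and Prc1, the bundler of the central spindle, by -0.41 ± 0.11.

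E2F sites were searched as TTTCCCGC and TTTGGCGC on both strands. The first stood in the window of 3 of 27 replication genes (11.1%) and of 279 of 27025 genes in all (1.03%), and the second in that of 2 of 27 (7.41%) and 131 (0.485%). The Mcm7 window (chr5:138171884-138172133, minus strand) is shown since it holds the first, in capitals and read on the other strand. The presence of a site is a description of the sequence.

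Mcm7: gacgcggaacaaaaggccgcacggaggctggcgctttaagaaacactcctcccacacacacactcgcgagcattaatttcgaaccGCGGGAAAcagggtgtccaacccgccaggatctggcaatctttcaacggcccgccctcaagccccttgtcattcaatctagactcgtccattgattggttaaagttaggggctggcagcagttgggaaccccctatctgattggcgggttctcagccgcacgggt

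Genes for making ribosomes read higher in replicate 2 in polysomal RNA. Of 23 ribosome assembly genes, 5 were higher and 1 lower at an unadjusted p under 0.05 (7.52% of all genes were higher), 8 were higher in all 4 pairs and 1 lower, beside 12.3% of all genes higher, and 17 were higher in both polysomal pairs and 1 lower, beside 28% of all genes higher. The median was 0.13. Without the WT total pair it was 0.27, and 12 genes were higher in the other 3 pairs and 1 lower, beside 20.7% and 17.5% of all genes. Nop2, an rRNA methyltransferase of the nucleolus, read 10.56, 10.44, 10.85 and 10.43 in replicate 2, against 9.85, 9.94, 10.07 and 9.85 in replicate 1. All 4 arrays of replicate 2 exceeded all 4 of replicate 1 (0.64 ± 0.07, adjusted p = 0.138). Ddx21, a nucleolar helicase, differed by 0.42 ± 0.09. Polr1a, the large subunit of RNA polymerase I, differed by 0.39 ± 0.11 on its brightest probe, and by -0.06 and 0.26 on its other measured probes. Gar1, a protein of the RNPs that modify rRNA, went the other way at -0.34 ± 0.08.

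The 32 translation initiation factor genes were split. At an unadjusted p under 0.05, 4 were higher and 4 lower, beside 7.52% and 7.17% of all genes. The median of the 32 was 0.01. Among them Eif3a, the largest subunit of eIF3, differed by 0.63 ± 0.08 on its brightest probe and 0.01 on another. Eif4a2, an RNA helicase of eIF4F, differed by 0.81 ± 0.16 on its brightest probe and 0.33 on another. The probes of these genes did not give the same size of difference.

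Of 18 cholesterol synthesis genes, 2 were lower and 0 higher in all 4 pairs, the share of all genes being 10.8% lower, and the median was -0.19. In both polysomal pairs 9 were lower and 1 higher, beside 29.4% of all genes lower. In the 3 pairs without WT total 6 were lower and 1 higher, beside 17.5% and 20.7% of all genes. Nsdhl and Msmo1, enzymes that demethylate sterols, differed by -0.60 ± 0.08 and -0.53 ± 0.10. Of 17 fatty acid genes 4 were lower and 0 higher at an unadjusted p under 0.05 (7.17% of all genes were lower). In all 4 pairs 4 were lower and 0 higher, beside 10.8% of all genes lower. In the 3 pairs without WT total 4 were lower and 4 higher, beside 17.5% and 20.7% of all genes. The lower genes included the desaturases Scd2 at -0.55 ± 0.07 and Fads2 at -0.55 ± 0.08. Of 29 glycolysis and hypoxia genes 6 were lower and 0 higher at an unadjusted p under 0.05, beside 7.17% and 7.52% of all genes. In all 4 pairs 3 were higher and 5 lower, beside 12.3% and 10.8% of all genes. In the 3 pairs without WT total 6 were higher and 8 lower, beside 20.7% and 17.5%. Slc2a1, the glucose transporter GLUT1, read 12.78, 12.38, 12.21 and 12.26 in replicate 2, against 13.59, 13.31, 12.71 and 12.58 in replicate 1 (-0.64 ± 0.12, adjusted p = 0.208). It was lower in each pair, more so in KI. Pfkp, a phosphofructokinase, differed by -0.67 ± 0.15.

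Of 65 oxidative phosphorylation genes, 11 were lower and 4 higher in all 4 pairs, beside 10.8% and 12.3% of all genes. The 2 counts together have the share of all genes with 1 sign throughout, 23.1%. At an unadjusted p under 0.05, 8 were lower and 3 higher, beside 7.17% and 7.52% of all genes. In the 3 pairs without WT total 15 were lower and 8 higher, beside 17.5% and 20.7% of all genes. Medians were 0.04 in KI total and 0.02 in KI polysomal RNA, and -0.27 in WT total and -0.10 in WT polysomal RNA. The complex I genes Ndufs8, Ndufs6, Ndufa10 and Ndufs3 had the lowest p values, with differences of -0.30 ± 0.06, -0.36 ± 0.08, -0.33 ± 0.07 and -0.45 ± 0.11. The 29 NRF2 and redox genes had a median of -0.18, with 8 lower and 1 higher in all 4 pairs, beside 10.8% of all genes lower. Without the WT total pair the median was -0.09, the count lower at an unadjusted p under 0.05 was 3 against 5 with it, and 8 were lower and 3 higher in the other 3 pairs. Cat, which encodes catalase, differed by -0.33 ± 0.06. Tfrc, the transferrin receptor that brings iron into cells, went the other way. It read 10.00, 11.73, 10.00 and 12.87 in replicate 2, against 8.96, 10.90, 9.58 and 11.93 in replicate 1 (0.81 ± 0.12, adjusted p = 0.176), and was higher in every pair.

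Collagen and matrix genes read higher in part. Of 27 collagen and matrix genes, 5 were higher and 0 lower at an unadjusted p under 0.05 (7.52% of all genes were higher), and 4 were higher in all 4 pairs and 0 lower, which is close to the 12.3% over all genes. The median was 0.21. Without the WT total pair it was 0.12, and 8 genes were higher and 1 lower in the other 3 pairs, beside 20.7% of all genes higher. The member Dcn, low on WT total replicate 2, went the other way. By pair the median of the list was 0.02 in KI total, 0.22 in KI polysomal, 0.27 in WT total and 0.09 in WT polysomal RNA. Col1a1, the main chain of collagen I, read 12.89, 12.73, 11.77 and 11.04 in replicate 2, against 12.52, 11.81, 10.95 and 10.56 in replicate 1 (0.65 ± 0.11, adjusted p = 0.198). Every pair was higher, and the KI arrays lay above the WT ones in both experiments. Col6a2 differed by 0.95 ± 0.21. Lox, which crosslinks collagen, had a mean of 1.12 ± 0.37, but in WT polysomal RNA it read 10.21 in replicate 2 and 10.42 in replicate 1.

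The 13 tested fibroblast markers were divided, with 8 higher and 5 lower on average. In all 4 pairs 3 of the 13 were higher and 1 lower, beside 12.3% and 10.8% of all genes. Among the fibroblast markers the PDGF receptors Pdgfra and Pdgfrb differed by 0.39 ± 0.08 and 0.33 ± 0.07. Outside that list, Aebp1, which binds collagen, differed by 0.61 ± 0.09 (adjusted p = 0.169). Igfbp4, a carrier that holds IGF, read 13.47, 12.36, 10.77 and 9.18 in replicate 2, against 12.90, 11.97, 9.76 and 8.74 in replicate 1 (0.60 ± 0.12, adjusted p = 0.214). Beside this the line difference was 3.06 ± 0.12 (KI minus WT, adjusted p = 0.00417, and 0.096 with 1 mean for each culture), and KI replicate 1 lay above WT replicate 2 in each RNA type. Single markers of other cell types also read higher or lower. Nes, an intermediate filament of neural and muscle precursors, differed by 0.90 ± 0.18, muscle actin Acta1 by 1.02 ± 0.30 and Cd14 by -0.48 ± 0.10. The mean level of the 14 fibroblast markers was 9.86 to 10.23 in replicate 2 and 9.72 to 10.27 in replicate 1. The mean level of the 11 neural markers was 7.89 to 8.06 in replicate 2 and 7.86 to 8.01 in replicate 1, that of the 14 muscle markers 7.68 to 7.97 and 7.70 to 7.86, and that of the 14 macrophage markers 7.77 to 7.78 and 7.80 to 7.83. Their part in these differences was not tested.

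Of 23 histone genes 6 were higher and 2 lower in all 4 pairs, beside 12.3% and 10.8% of all genes. In the 3 pairs without WT total 6 were higher and 3 lower, beside 20.7% and 17.5%. In both total pairs 15 were higher and 3 lower, beside 33.1% of all genes higher. Medians were 0.27 in KI total and 0.38 in WT total RNA, against -0.00 in KI polysomal and 0.01 in WT polysomal RNA. H2ac11, a replication-dependent histone H2A gene, read 13.72, 12.76, 14.01 and 12.94 in replicate 2, against 12.55, 11.90, 12.85 and 12.49 in replicate 1 (0.91 ± 0.14, adjusted p = 0.183). H3f3a, which encodes the variant H3.3 and is made outside S phase too, differed by -0.50 ± 0.10. Replication-dependent histone mRNAs lack a poly(A) tail, as does the U6 RNA.

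**Figure D3:**
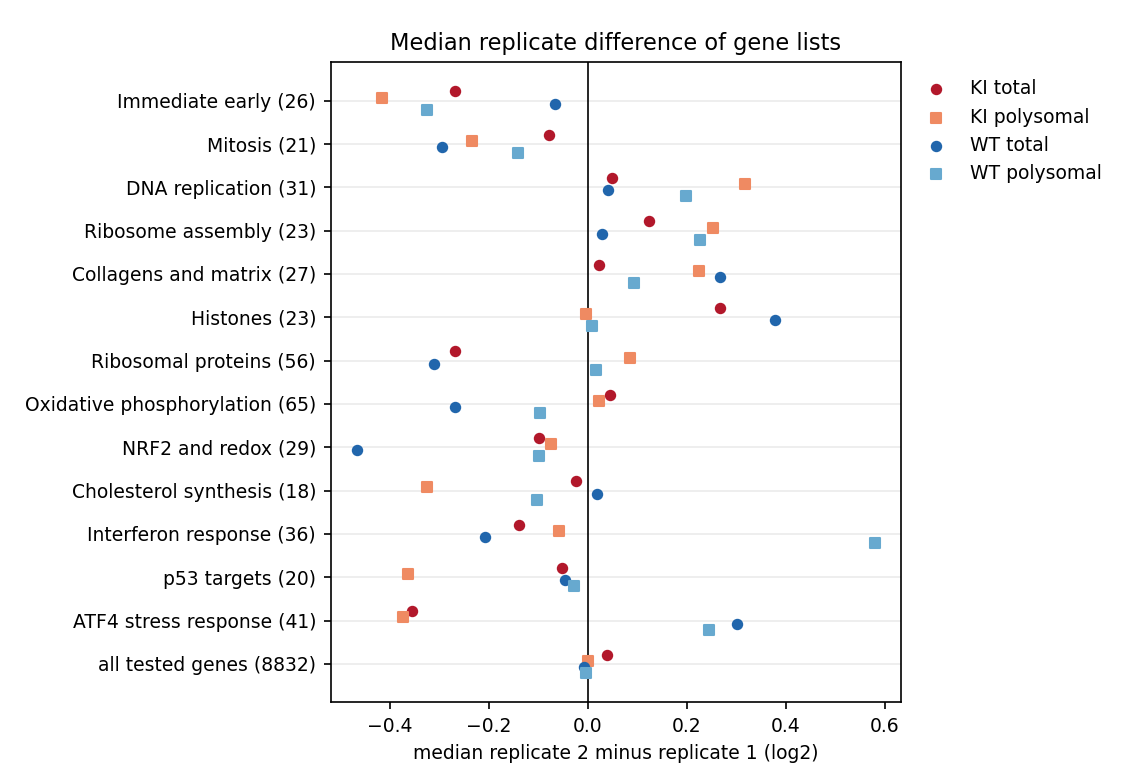
Median replicate 2 minus replicate 1 (log2, horizontal axis) over the tested members of 13 gene lists and over all tested genes (rows, number of genes in brackets), with a point for each pair of arrays. Immediate early and mitosis genes lie below 0 in all 4 pairs, while the ATF4 list lies below 0 in KI and above 0 in WT.

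In total RNA alone, 0 genes passed and 1968 (22.3%) had an unadjusted p under 0.05, of which 1106 were higher (12.5%) and 862 lower (9.76%). In polysomal RNA alone, 0 passed and 622 (7.04%) had an unadjusted p under 0.05 (3.67% higher, 3.37% lower). The genes of smallest p in total RNA (adjusted p = 0.105 for each) included Rbm3, a cold-induced RNA-binding protein, and Uqcrc2, a core subunit of complex III. Rbm3 read 11.14 in KI and 11.16 in WT total RNA of replicate 2, against 12.26 and 12.35 in replicate 1, a difference of -1.15 ± 0.08. Its polysomal signal was 13.74 in KI and 13.85 in WT of replicate 2, against 13.54 and 13.73 in replicate 1. Uqcrc2 read 9.71 and 9.68 in total RNA of replicate 2, against 10.91 and 11.05 in replicate 1, and 12.42 and 12.33 in polysomal RNA, against 12.41 and 12.15. Both genes were thus about 1 lower in the total RNA of each line and not lower in the polysomal RNA.

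Others differed in total RNA in the opposite direction. The nuclear matrix protein gene Matr3 differed by 1.41 ± 0.10 and Zfp213, a zinc finger gene, by 1.25 ± 0.08. Ccn5, a matricellular protein of the CCN family, differed by 1.13 ± 0.08, and Cd320, the receptor for transcobalamin-bound vitamin B12, by 1.01 ± 0.09. Snrpa1, a protein of the U2 snRNP, differed by -0.95 ± 0.08 and Wdr1, which helps cofilin to take apart actin filaments, by -0.91 ± 0.08. For Matr3 a second probe gave 0.09 over all 4 pairs, against 0.88 for the brightest. In polysomal RNA the smallest p values (adjusted p = 0.699 for each) included those of Gjb2 at -1.14 ± 0.10, Aebp1 at 0.75 ± 0.08, Cyp1b1 at 0.90 ± 0.10, Atm, the kinase of the DNA break response, at 0.73 ± 0.08, and Csrnp1, an AXIN1-induced nuclear protein, at -1.0 ± 0.09.

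The polysomal replicate difference less the total one had 0 genes passing and 978 (11.1%) at an unadjusted p under 0.05 (4.86% higher, 6.22% lower). Rps6, the ribosomal protein that S6 kinase phosphorylates, read 11.38 in KI and 11.63 in WT total RNA of replicate 2, against 12.90 and 13.78 in replicate 1. Its polysomal signal was 13.79 and 14.33 in replicate 2, against 13.56 and 14.10 in replicate 1. The polysomal less total difference was 2.06 ± 0.25 (adjusted p = 0.407), and it lay in the total RNA. For Cct6a, a subunit of the cytosolic chaperonin, it was 1.45 ± 0.17, and for Id1, an inhibitor of bHLH factors, -1.09 ± 0.12.

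Ribosomal protein genes as a list read lower in replicate 2 in total RNA. Of 56, 37 were lower in both total pairs and 4 higher, beside 27.4% of all genes lower, and in polysomal RNA 17 were higher in both pairs and 7 lower, beside 28% of all genes higher. Medians were -0.27 in KI total and -0.31 in WT total RNA, and 0.08 in KI polysomal and 0.02 in WT polysomal RNA. These mRNAs carry the TOP motif that ties their translation to mTOR. The wider pattern was set against how strongly a gene was represented in polysomal over total RNA. This measure was taken from the other line, so that no array entered both sides. It averages both replicates of that line, so a replicate difference shared by the lines still enters both sides. Across 8832 genes, which are not independent replicates, that measure correlated with the total replicate difference at r = -0.19 in KI and -0.33 in WT, and with the polysomal one at 0.17 in KI and 0.08 in WT.

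With genes binned by that measure, the 884 genes least represented in polysomes had a median total difference of 0.34 in KI and 0.31 in WT. The 884 most represented had 0.08 in KI and -0.23 in WT, so the KI curve was not steady to its end. The spread of polysomal minus total signal was also wider in replicate 2, with an SD over genes of 0.869 in KI and 0.957 in WT, against 0.745 and 0.736 in replicate 1. Total RNA thus differed from polysomal RNA more in replicate 2 than in replicate 1, in both lines.

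**Figure D4:**
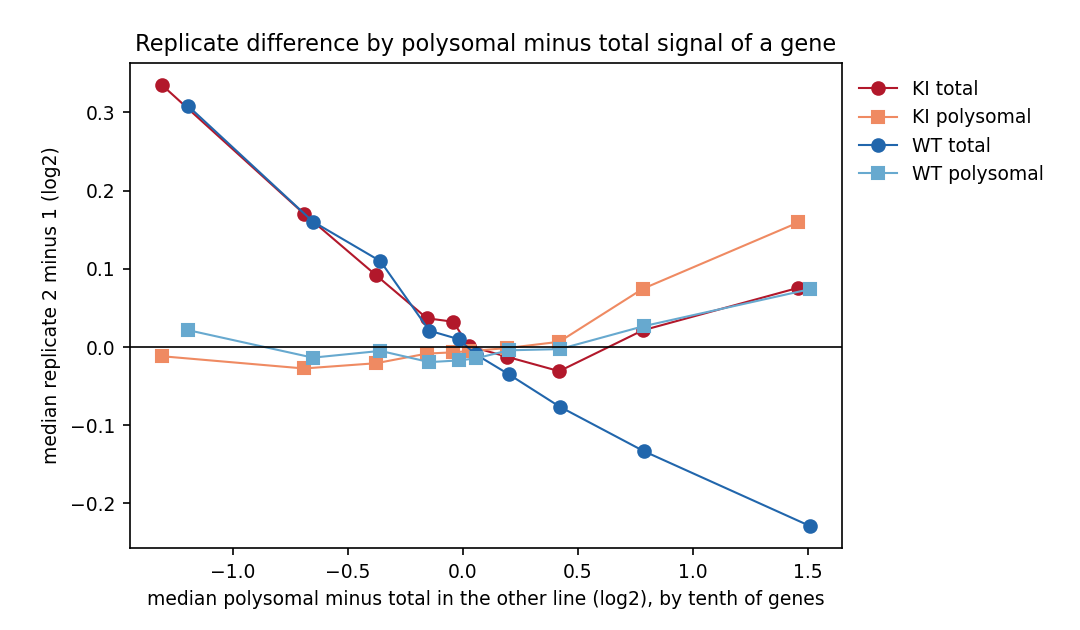
Median replicate 2 minus replicate 1 (log2, vertical axis) of genes binned by polysomal minus total signal in the other line (bin median, log2, horizontal axis), with a line for each pair of arrays. Genes least represented in polysomes lie at 0.34 and 0.31 in total RNA of KI and WT and near 0 in polysomal RNA.

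Where the lines disagreed on the replicate difference, most genes of the ATF4 stress response were lower in KI and higher in WT. ATF4 is the factor made when amino acid shortage, ER stress or haem shortage leads to phosphorylation of eIF2, and it turns on genes for amino acid synthesis, uptake and tRNA charging. Of 41 tested, 22 were lower in both KI pairs and higher in both WT pairs, and 0 the reverse, beside 3.89% of all genes lower in KI and higher in WT. At an unadjusted p under 0.05 for the KI less WT replicate difference, 24 were lower in KI and 0 higher, beside 3.12% of all genes lower. Medians were -0.35 in KI total and -0.37 in KI polysomal RNA, against 0.30 in WT total and 0.25 in WT polysomal RNA. In total RNA alone 25 (61%) were lower in KI and higher in WT, beside 15.3% of all genes, and in polysomal RNA alone, without any WT total array, 34 (82.9%), beside 20.6%. Over all genes 0 passed limma's test of KI less WT and 587 (6.65%) had an unadjusted p under 0.05 (3.52% higher in KI, 3.12% lower). Within a line 0 passed too. At an unadjusted p under 0.05 there were 14.2% of genes in KI (7.2% higher, 7% lower in replicate 2) and 7.21% in WT (2.88% higher, 4.34% lower).

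Chac1, an enzyme that breaks down glutathione and a target of ATF4 chosen after its values were seen, read 12.89, 11.89, 12.81 and 11.65 in replicate 2, against 13.69, 13.24, 10.97 and 10.32 in replicate 1. KI was lower in replicate 2 and WT higher, so that the lines read alike in replicate 2 and lay over 2 apart in replicate 1 (KI less WT -2.66 ± 0.28, adjusted p = 0.512). Atf4 itself, also chosen after its values were seen, read 11.65, 10.56, 12.31 and 10.59, against 11.95, 11.34, 11.62 and 10.38 (-0.98 ± 0.26). Slc6a9, the glycine transporter GLYT1 and no member of the list, read 11.18, 10.89, 11.14 and 10.42, against 11.999, 11.65, 9.85 and 9.57 (-1.86 ± 0.20). These 3 genes ran opposite ways in the lines in both RNA types.

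Other members, chosen after their values were seen, also had negative values of KI less WT. They were -1.48 ± 0.20 for Atf5, a related factor, -1.16 ± 0.15 for Sesn2, which restrains mTORC1, -1.08 ± 0.18 for Trib3, a pseudokinase that binds AKT, -1.01 ± 0.32 for Asns, asparagine synthetase, and -0.65 ± 0.20 for Aars, the alanyl-tRNA synthetase. Slc7a3, an arginine transporter, had -0.94 ± 0.18, and Ddit4, which restrains mTORC1 under stress, -0.71 ± 0.21. Slc7a3 also passed for the line difference, at 3.28 ± 0.22 for KI minus WT (adjusted p = 0.0155, and 0.149 with 1 mean for each culture).

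The composite element that ATF4 binds was searched as TGATGNAA on both strands. It stood in the window of 9 of the 34 listed genes with a promoter in the table (26.5%), against 1056 of 27025 (3.91%). The windows of Chac1 (chr2:119350992-119351241, plus strand) and Asns (chr6:7693210-7693459, minus strand) are shown, with the element in capitals, as members of the list whose pairs ran opposite ways in the lines. In Chac1 it reads on the other strand. The list was drawn up as genes of the ATF4 response, so the share describes their sequence and says nothing of these arrays.

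Chac1: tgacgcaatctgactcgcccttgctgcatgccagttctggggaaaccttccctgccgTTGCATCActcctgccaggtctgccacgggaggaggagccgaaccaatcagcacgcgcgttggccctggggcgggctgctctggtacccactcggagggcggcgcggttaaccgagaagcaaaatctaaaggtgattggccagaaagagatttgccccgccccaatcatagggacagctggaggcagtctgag

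Asns: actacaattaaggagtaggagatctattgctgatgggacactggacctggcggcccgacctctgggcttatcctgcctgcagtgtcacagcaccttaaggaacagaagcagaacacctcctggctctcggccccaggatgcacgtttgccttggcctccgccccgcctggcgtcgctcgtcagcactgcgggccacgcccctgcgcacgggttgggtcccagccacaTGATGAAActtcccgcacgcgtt

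Genes outside the list shared that form. Hmox1, the haem oxygenase and a target of NRF2, read 9.81, 9.73, 10.41 and 9.93 in replicate 2, against 10.95, 10.97, 9.22 and 9.05 in replicate 1. KI less WT was -2.22 ± 0.17 (adjusted p = 0.497), with KI lower and WT higher in replicate 2. Plec, the cytoskeletal linker plectin, read 13.48, 13.46, 13.56 and 13.18, against 14.13, 14.12, 12.96 and 12.52 (-1.29 ± 0.13).

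Cdkn1a, the p21 inhibitor of cell-cycle kinases and a target of p53, was chosen after its values were seen. It read 10.21, 8.96, 9.53 and 8.53 in replicate 2, against 12.21, 11.68, 9.11 and 8.46 in replicate 1 (-2.61 ± 0.30, adjusted p = 0.512). The KI arrays of replicate 1 stood above all others, and the WT arrays differed by less than the KI arrays. Dusp2, a nuclear phosphatase of MAP kinases, had the same form at 9.17, 8.0, 7.67 and 7.68, against 11.47, 10.63, 7.83 and 7.68 (-2.38 ± 0.18, adjusted p = 0.497). Mdm2, which marks p53 for degradation, read 8.41, 10.27, 8.10 and 10.41, against 9.56, 11.77, 8.96 and 10.60, and was lower in replicate 2 in every pair (-0.92 ± 0.22, replicate 2 minus replicate 1). Of 20 p53 targets 5 were lower in all 4 pairs and 0 higher, beside 10.8% of all genes lower. In the 3 pairs without WT total 6 were lower and 1 higher, beside 17.5% and 20.7% of all genes. The median of the list was -0.36 in KI polysomal RNA and near 0 elsewhere. It was -0.05 in KI total, -0.05 in WT total and -0.03 in WT polysomal RNA. Bbc3, the apoptosis gene PUMA, gave -1.11 ± 0.15 for KI less WT, and its second probe gave -0.03 for the replicate difference against -0.78 for the brightest.

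Genes higher in both KI pairs and lower in both WT pairs numbered 574 (6.5%), more than the 344 of the opposite kind. Ppbp, a platelet-type chemokine, read 10.65, 11.99, 7.84 and 8.11 in replicate 2, against 9.28, 9.60, 9.31 and 9.14 in replicate 1. Its KI less WT difference was 3.13 ± 0.40 (adjusted p = 0.512), and the lines read alike in replicate 1 alone. Cav1, the coat protein of caveolae, read 10.81, 12.98, 10.33 and 12.07, against 10.12, 12.40, 10.84 and 12.51 (1.11 ± 0.14). Apod, a lipid carrier of quiescent cells, read 9.69 and 9.48 in KI of replicate 2 and 7.92 and 7.71 in KI of replicate 1, and no more than 7.97 on any WT array (1.59 ± 0.16). Rab8b, a GTPase of vesicle traffic, gave 1.09 ± 0.13.

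**Figure D5:**
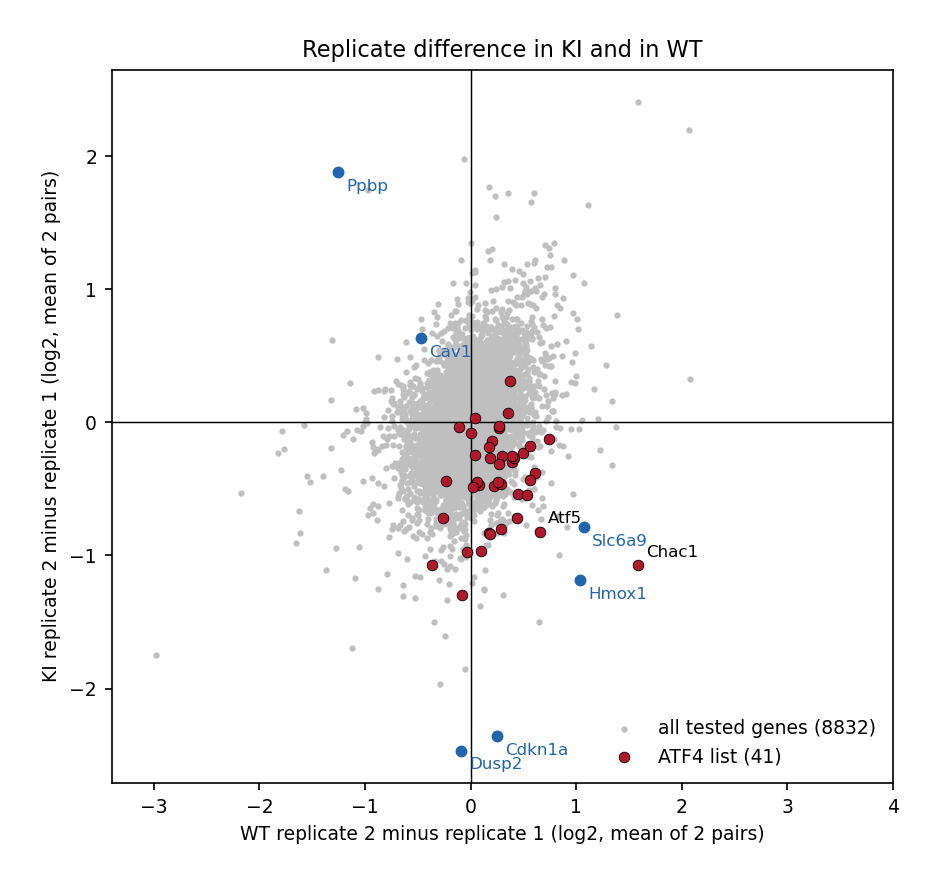
Mean replicate 2 minus replicate 1 (log2) in KI (vertical axis) and in WT (horizontal axis) for each of 8832 tested genes in grey, the 41 of the ATF4 list in red and 6 other named genes in blue. Most of the ATF4 list lies below 0 in KI and right of 0 in WT, with Chac1 farthest to the right among them and Ppbp on the opposite side.

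Several genes that separated the lines had replicate differences smaller than their line differences. Hoxb7 read 7.65, 7.63, 9.65 and 10.16 in replicate 2, against 7.64, 7.62, 10.03 and 10.24 in replicate 1. KI minus WT was -2.39 ± 0.09 (adjusted p = 0.00417), while replicate 2 minus replicate 1 was -0.11. Thbd, thrombomodulin, gave -1.98 ± 0.09 for KI minus WT (adjusted p = 0.00417) and 0.05 for replicate. Ndn, the imprinted gene necdin, gave 3.44 ± 0.25 (adjusted p = 0.0176), Gpx7, a peroxidase of the ER, 2.08 ± 0.13 (adjusted p = 0.0146), and Nppb, a natriuretic peptide gene, 1.67 ± 0.08 (adjusted p = 0.00552). The size of the replicate difference less that of the line difference was -3.05 for Ndn, -2.06 for Gpx7 and -1.44 for Nppb. The calls for KI minus WT count total and polysomal RNA of a culture as separate arrays. With 1 mean for each culture 0 genes passed, and the adjusted p was 0.096 for Hoxb7, Thbd, Gpx7 and Nppb and 0.149 for Ndn. Without KI total replicate 2 it was 0.0679 for Hoxb7, and without KI total replicate 1 it was 0.0869.

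Hoxc6 differed both ways. It read 9.28, 8.40, 10.87 and 10.78 in replicate 2, against 9.93, 9.33, 11.56 and 11.46 in replicate 1. KI minus WT was -1.93 ± 0.07 (adjusted p = 0.00417, and 0.096 with 1 mean for each culture) and replicate 2 minus replicate 1 was -0.74 ± 0.07 (adjusted p = 0.114). Every pair was lower in replicate 2, by the most in KI polysomal RNA. Of 18 tested Hox genes 9 passed for KI minus WT, beside 0.928% of all genes. In all 4 replicate pairs 3 were lower and 0 higher, beside 10.8% of all genes lower. In the 3 pairs without WT total 5 were lower and 0 higher, beside 17.5% and 20.7%. Of 3 tested sex-linked genes (Eif2s3y, Kdm5d and Uty), 1 passed for KI minus WT and was higher in KI, beside 0.928% of all genes. None passed with 1 mean for each culture. The mean level of the 4 sex-linked genes measured was 8.32 and 8.26 in KI polysomal RNA (replicates 2 and 1), against 7.70 and 7.71 in WT. In total RNA it was 7.94 and 7.75 in KI, and 7.75 and 7.72 in WT.

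For several messages that the study followed as targets of eIF4E phosphorylation, the WT total pair differed most. Of the 6 tested (Birc2, Ccl2, Ccl7, Mmp3, Nfkbia and Vegfc), 0 were higher and 1 lower in all 4 pairs, beside 12.3% and 10.8% of all genes. The median of the 6 was -0.32, with -1.62 in the WT total pair and 0.02 without that pair. Ccl2 read 8.21 on WT total replicate 2 and 11.63 on WT total replicate 1, against 11.47 and 11.63 in WT polysomal RNA. Mmp3, a matrix metalloprotease, read 7.67 and 9.44 in WT total RNA and went the other way in WT polysomal RNA, at 11.32 and 9.88. Birc2, an inhibitor of apoptosis, read 9.26, 11.34, 9.60 and 13.12 in replicate 2, against 7.89, 9.26, 9.68 and 12.33 in replicate 1 (1.04 ± 0.36, adjusted p = 0.299). It was higher in KI by more than in WT polysomal RNA and slightly lower in WT total RNA. This list was chosen by the study on these samples, so its direction is not independent evidence.

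Interferon response genes had their largest median in WT polysomal RNA, with the other sign in WT total RNA. Of 36 tested, 0 had the same sign in all 4 pairs, beside 23.1% of all genes. In the 3 pairs without WT total 7 were higher, close to the 20.7% of all genes, and 0 lower, beside 17.5%. Medians were -0.14 in KI total, -0.06 in KI polysomal, -0.21 in WT total and 0.58 in WT polysomal RNA. Isg15, a ubiquitin-like protein induced by interferon and chosen after its values were seen, read 11.38, 11.84, 8.29 and 11.18 in replicate 2, against 11.30, 11.81, 9.45 and 9.30 in replicate 1. Oas1g, a synthetase that senses double-stranded RNA, also chosen so, read 11.96, 11.18, 7.83 and 11.87, against 12.52, 11.72, 9.92 and 9.45. For both, WT polysomal replicate 2 stood near the KI arrays, while WT total replicate 2 was the lowest of the 8. In replicate 1 the WT total and polysomal arrays read close together.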

How the data were processed

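The authors deposited 1 processed value per probe and array, read here as log2 signal. The R package lumi is named in the submitters' processing notes. Its version, the log base, background correction and normalization were not given in the sources used here. A second table held 8 columns, equal to the labelled arrays within 1e-06, under names that no label gives, and was not used. Of 25697 probes, 23978 had 1 gene symbol. Probes with a mean above 7.73, the median of the probe means, were kept (12848, of which 754 had no symbol), and the brightest probe of each gene gave 8832 genes. Precision is limited by the small number of arrays.

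A model with 4 group means and the replicate number was fitted to all 8 arrays with limma 3.58.1 in R 4.3.3, with 3 residual and 2.1 prior degrees of freedom. Fits with the replicate number nested in RNA type or in line gave the other contrasts. Errors are limma standard errors. P-values are two-sided and adjusted by the Benjamini-Hochberg method over all tested genes. The fits were tested on simulated data.

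The groups compared, the gene lists and the genes named were chosen with earlier results of these data known, so no list was tested. By rule, each contrast names the genes that passed, or otherwise those of smallest p, in each direction. From each list, at most 4 members with the smallest p were added, beside Eif4e, the study's targets, Dcn, Crip2 and sex-linked genes. Other genes are marked as chosen after their values were seen. Promoter sequences are from RefSeq on GRCm38.p6. The replicate number is the comparison itself here, so the KI minus WT contrast carries it as a block, on the inference that a number marks 1 experiment. The replicate differences of KI and WT correlated over the tested genes at 0.39 in total and 0.24 in polysomal RNA. Across RNA types the values were 0.16 (KI total) and 0.10 (WT total). These do not settle the pairing, since genes are not independent replicates and the value in total RNA rests in part on WT total replicate 2. The signal of that array correlated with KI total replicate 2 at 0.975 and with WT total replicate 1 at 0.958. The KI total arrays correlated at 0.968. Within a culture, total and polysomal differences correlated at 0.58 in KI but 0.05 in WT, whose total pair holds the array that differs widely from its partner. Other settings covered the filter, normalization, prior, probes, culture and each array left out.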

Additional observations from a re-analysis of the deposited data

Results flagged for a closer look

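Gene lists whose medians ran opposite ways are given here. The differences between lists' medians were not tested, and every one rests on 2 pairs a side. The ATF4 list gave -0.70 for KI less WT. The oxidative phosphorylation list gave 0.20, with 0.04 and 0.02 in the KI pairs and -0.27 and -0.10 in the WT pairs. The matrix protease list gave 0.18 and the muscle markers 0.094, both positive in KI and negative in WT. For polysomal less total RNA, ribosomal proteins gave 0.38, ER chaperones 0.089 and Hox genes -0.12. The Hox medians were -0.03 and -0.05 in the polysomal pairs and 0.00 and 0.05 in the total pairs.

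Single genes whose pairs ran opposite ways in the lines had their difference tested with limma, and none passed. KI less WT was -2.22 for Hmox1, -1.29 for Plec, -1.86 for Slc6a9, -2.66 for Chac1, -2.61 for Cdkn1a, -1.16 for Sesn2, -1.08 for Trib3, -1.01 for Asns, -0.98 for Atf4, -1.48 for Atf5 and -0.65 for Aars. It was 1.09 for Rab8b, 1.11 for Cav1 and 3.13 for Ppbp.

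Genes whose pairs ran opposite ways in the RNA types were tested in the same manner, and none passed. Polysomal less total was 1.32 for Rbm3, 1.38 for Uqcrc2, 1.45 for Cct6a, 2.06 for Rps6, -1.09 for Id1 and -0.91 for Mydgf. Mydgf is a secreted growth factor, and its polysomal pairs were near 0.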

How the results depend on the processing

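With a filter at the 75th percentile of probe means, 12 genes passed for replicate 2 against replicate 1 (6 higher, 6 lower), among them Gjb2, Egr1, Egr2, Errfi1, Mgp, Col6a1, Pcolce, Plpp3, Cyp1b1 and Rnu6. With a prior that follows mean signal 4 passed (Egr1, Egr2, Gjb2 and Mgp). In the same 2 settings 5 and 8 genes passed for the replicate difference of KI less WT, Hmox1, Chac1, Cdkn1a, Ppbp and Dusp2 in both. In no setting run did a gene pass in total RNA, in polysomal RNA or in their difference, and no named gene of these contrasts changed direction. KI minus WT had 82 genes, against 19 with no filter, 283 with the stricter one, 147 after quantile normalization, 368 with the trended prior, 323 with culture as a random block (consensus correlation -0.18) and 0 with 1 mean for each culture (1558 at an unadjusted p under 0.05). Without the replicate block it had 98, of which 65 were among the 82. Leaving out each array in turn gave 0 to 464, with 464 without WT total replicate 2 and 0 without either KI total array. The count of genes with the genotype difference the larger was 0, against 15, 2, 1, 19 and 3 with the stricter filter, quantile normalization, centred arrays, the trended prior and the culture block, and 0 to 8 with an array left out (8 without WT total replicate 2). Replicate 2 against replicate 1 gave 0 with any array left out, with 696 to 1396 genes at an unadjusted p under 0.05. Of the medians of gene lists, 24 of 312 values with an array left out and 18 of 348 in other settings moved beyond the spread between pairs. Culture as a random block could not be fitted within RNA types or lines, since its correlation could not be estimated, and 1 mean for each culture leaves no residual degrees of freedom for KI less WT. A signal near 7.7 limits any fold against it.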
